A study of Mus musculus with 14 samples.

Results

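Plantaris muscle after 10 days of overload was compared with plantaris at day 0, before overload. The comparison used 4 of the 14 arrays of a mouse time course: every array labelled day 10 and every array labelled day 0. All 19938 genes with a probe set of 1 symbol were described. The day 10 group held 1 pool of right and 1 pool of left plantaris muscles, and so did the day 0 group. Each pool combined muscle of 6 male C57BL/6J mice aged 5 months, and total RNA was hybridised to an Affymetrix Mouse Gene 1.0 ST array. No genotype, drug or sham operation is given in the labels for any group, so overload, surgery and elapsed time cannot be told apart. Whether both pools of a day share their animals is not in the labels, and p-values measure the spread between pools only. Days 7 and 14, with 1 right and 1 left pool each, were used to place day 10 within the course.

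The plantaris is an ankle plantar flexor of the hind limb, made mostly of fast fibres in mice. Overload of the plantaris is commonly produced by removing its larger synergists, so that the muscle carries more load and enlarges. As general background, loaded fibres take up satellite cell nuclei, re-express developmental sarcomere genes and make more ribosomes, while macrophages and fibroblasts rebuild the matrix around them. RNA of the whole muscle was measured, so more cells of a type and more RNA per cell cannot be told apart in any result here.

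Deposited intensities are on a linear scale, and all levels below are log2 of them, with the right pool before the left. A difference of 1 is a 2-fold change. Differences are day 10 minus day 0 with their standard error from limma, n = 2 pools each, and a gene was called at an adjusted p under 0.05 over all genes. The median distance between the right and left pools of a day was 0.0805 at day 10 and 0.111 at day 0, and 50 genes at day 10 and 277 at day 0 differed over 2-fold between sides. The label was borne out by the fast fibre genes: Myh4, the myosin heavy chain of the fastest fibres, stood at 13.36 and 13.28 at day 10, against 13.91 and 13.95 at day 0. Actn3, the alpha-actinin of fast Z-discs, stood at 13.58 and 13.51 at day 10, against 14.09 and 14.02 at day 0.

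At day 10, 10192 genes (51.1%) were called against day 0, 4701 of them higher (23.6%) and 5491 lower (27.5%). The higher genes moved further: 1334 (6.69%) were called and over 2-fold higher, against 508 (2.55%) over 2-fold lower, and 264 were over 4-fold higher, against 54 over 4-fold lower. The median over all genes was -0.11. Setting the arrays to equal medians moved it to -0.21 and the split to 4010 higher and 7838 lower. The excess of lower genes turned to one of higher genes without the dimmest 1 in 3 genes (4557 higher, 4068 lower). It also turned without the right day 0 pool (4537 and 4414), the right day 10 pool (3901 and 3705) or the left day 10 pool (4156 and 4152). The 2 day 10 pools did not overlap the 2 day 0 pools in any of the 10192 called genes, nor in 79.1% of genes, called or not. Separation of the pools alone therefore marks no gene and adds nothing to a call.

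**Figure D1:**
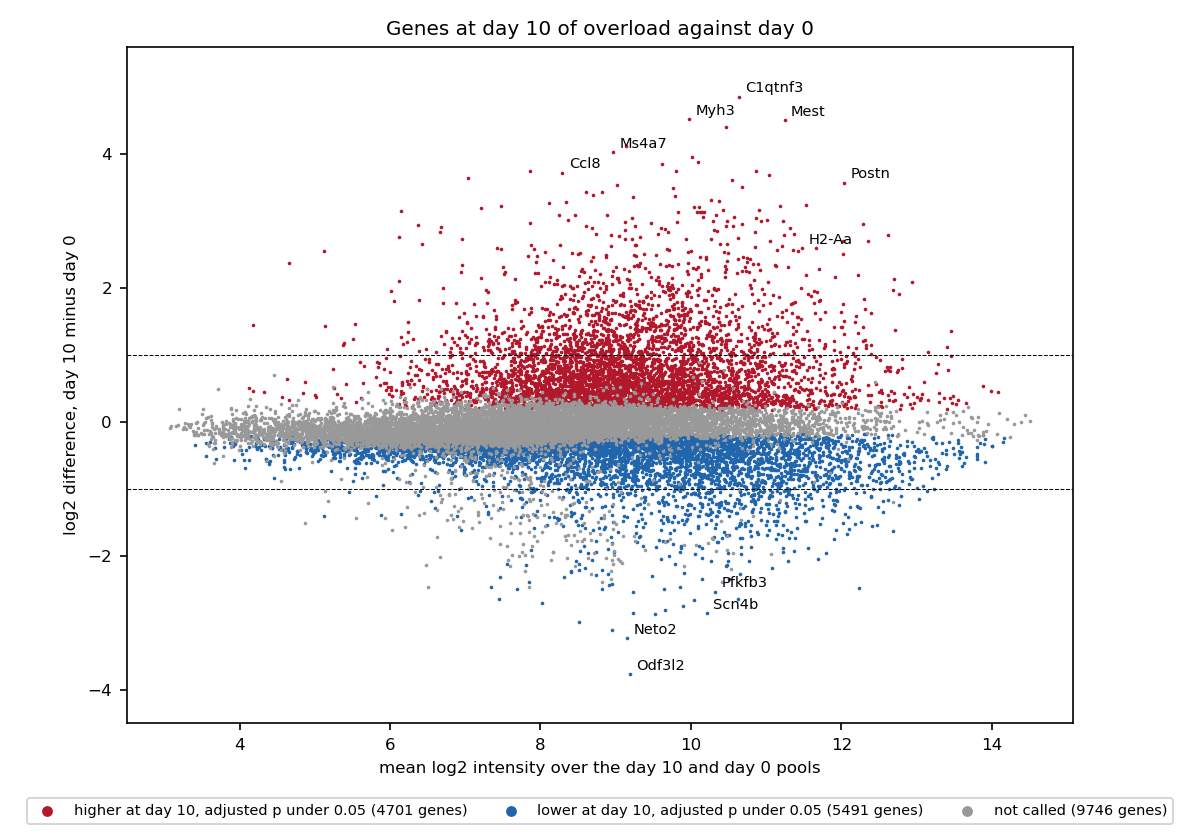
Each point is 1 gene; the horizontal axis is its mean log2 intensity over the 4 pools and the vertical axis its log2 difference, day 10 minus day 0, with dashed lines at 2-fold. Red points were called higher (4701 genes) and blue points lower (5491), and the red cloud reaches further from 0 than the blue one.

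Among the 20 largest rises were genes of regenerating fibres, of matrix builders and of macrophages. C1qtnf3, which encodes a secreted C1q and TNF related protein, had the largest difference of all genes, with 13.08 and 13.04 at day 10, against 8.29 and 8.12 at day 0 (4.86 ± 0.21, 29.0-fold, adjusted p = 2.06e-08, limma). The pools of each day were close. Cthrc1, a secreted protein of matrix-forming fibroblasts, stood at 12.68 and 12.66 at day 10, against 8.32 and 8.19 at day 0. P4ha3, a prolyl hydroxylase subunit that modifies collagen chains, stood at 11.19 and 11.20 at day 10, against 7.14 and 7.01 at day 0. Lrrc15, a membrane protein of activated fibroblasts, stood at 11.51 and 11.51 at day 10, against 7.97 and 8.05 at day 0. In each of these genes the sides differed little. The rule for the largest rises and falls took only called genes whose pools did not overlap, so separation of the days was set by the selection.

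The 20 largest falls were led by Odf3l2, Neto2, Ostn and Gdap1. Odf3l2 stood at 7.41 and 7.21 at day 10, against 11.11 and 11.04 at day 0 (-3.77 ± 0.12, adjusted p = 2.50e-09, limma). Neto2, an auxiliary subunit of kainate receptors, stood at 7.76 and 7.31 at day 10, against 10.92 and 10.61 at day 0. Ostn, which encodes the secreted muscle peptide osteocrin, stood at 7.56 and 7.25 at day 10, against 10.59 and 10.42 at day 0. Ostn belongs to the natriuretic peptide list, of which 5 of 8 fell (3 to 5 with 1 of the 4 pools left out) and 0 rose. Gdap1, a mitochondrial outer membrane protein, fell to 7.20 and 6.83 at day 10, against 10.14 and 9.87 at day 0. The pools of these 4 genes were separated by more than 2 log2 units, with the right day 10 pool above the left in each. Of the 20, 6 were genes that liver expresses (Fabp1, Mup3, Cyp2c50, Cyp4a12a, Ces1d and Inmt), and 4 of these are described with the hepatocyte markers.

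Genes of the developing sarcomere formed the list with the highest median. Of 16 measured developmental sarcomere and regenerating fibre genes, 15 rose and 0 fell, 13 of them over 2-fold, with a median of 2.39 against -0.11 for all genes. Myh3, the embryonic myosin heavy chain, stood at 12.27 and 12.20 at day 10, against 7.80 and 7.62 at day 0 (4.52 ± 0.21, 23.0-fold, adjusted p = 3.44e-08, limma). Myh8, the perinatal myosin heavy chain, stood at 12.23 and 12.09 at day 10, against 9.11 and 9.29 at day 0. Actc1, cardiac alpha-actin, which is also the actin of embryonic muscle, stood at 13.98 and 14.04 at day 10, against 11.21 and 11.24 at day 0. Both pools of each gene were high at day 10 and low at day 0. Tnnt2, the troponin T of heart and embryonic muscle, rose by 3.02 ± 0.11, and Myl4, the embryonic and atrial light chain, by 2.70 ± 0.08. Runx1, a transcription factor induced in denervated and regenerating muscle, rose by 3.01 ± 0.10.

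Promoters of 2 of these genes and of Casq2, a calcium store gene of slow fibres described below, are shown because each holds a motif of a muscle factor family in the 150 bases before and 50 bases after its annotated start (RefSeq, GRCm38.p6). Capitals mark a CArG box, the motif of serum response factor, in Actc1, and a MEF2 site, the motif of the MEF2 factors, in Casq2 and Myh8.
Actc1, chr2:114052826-114053025, minus strand: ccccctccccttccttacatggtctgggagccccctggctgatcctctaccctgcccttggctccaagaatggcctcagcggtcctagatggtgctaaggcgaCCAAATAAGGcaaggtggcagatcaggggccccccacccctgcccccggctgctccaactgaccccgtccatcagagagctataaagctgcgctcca
Casq2, chr3:102086265-102086464, plus strand: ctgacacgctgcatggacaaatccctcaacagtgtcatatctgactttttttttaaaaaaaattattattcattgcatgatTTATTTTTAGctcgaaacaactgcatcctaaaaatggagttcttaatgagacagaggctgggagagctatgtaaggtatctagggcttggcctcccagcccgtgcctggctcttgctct
Myh8, chr11:67276974-67277173, plus strand: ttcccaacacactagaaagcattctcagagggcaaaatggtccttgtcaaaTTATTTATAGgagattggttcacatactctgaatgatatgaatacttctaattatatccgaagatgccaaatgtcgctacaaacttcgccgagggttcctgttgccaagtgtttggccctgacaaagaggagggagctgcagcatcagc
The CArG box of Actc1 begins 47 bases before the start, the MEF2 site of Casq2 69 bases before it and that of Myh8 99 bases before it. Searched on both strands over all 32851 windows of this length, a CArG box was in 1.08% and a MEF2 site in 1.95%. Of the 15 developmental sarcomere genes with an entry, 1 held a CArG box and 1 a MEF2 site. These 3 promoters were chosen after the values were seen, and a match of letters is not a site of binding.

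The adult sarcomere moved less. Of 22 fast sarcomere genes 0 rose and 14 fell, 3 over 2-fold (median -0.41). Myh4, given above by pool, differed by -0.61 ± 0.12. Myh1, the heavy chain of IIx fibres, was not called, at 13.74 and 13.79 at day 10, against 13.69 and 13.72 at day 0 (0.06 ± 0.11, adjusted p = 0.638, limma). Myh2, the heavy chain of IIa fibres, was not called either, at 13.56 and 13.59 at day 10, against 13.68 and 13.61 at day 0 (-0.07 ± 0.15, adjusted p = 0.691, limma). Of the fast heavy chains, Myh4 was the one that fell. Mylk2, the skeletal myosin light chain kinase, fell furthest in the list, to 10.85 and 10.48 at day 10, against 12.73 and 12.67 at day 0. Tcap, which caps titin at the Z-disc, differed by -1.53 ± 0.15.

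Slow sarcomere genes split. Of 14 genes 6 rose, 6 of them over 2-fold, and 4 fell (2 to 3 with 1 of the 4 pools left out). Tnni1, the slow troponin I, stood at 12.31 and 12.23 at day 10, against 9.40 and 9.47 at day 0. Tnnc1, the slow and cardiac troponin C, stood at 11.35 and 11.39 at day 10, against 9.54 and 9.67 at day 0. Tnnt1, the slow troponin T, differed by 1.64 ± 0.23. Against these, Myl3, the slow essential light chain, stood at 8.62 and 8.42 at day 10, against 11.29 and 11.26 at day 0 (-2.75 ± 0.33, adjusted p = 3.65e-05, limma). Myl2, the slow regulatory light chain, stood at 10.07 and 10.07 at day 10, against 10.98 and 10.96 at day 0 (adjusted p = 0.0493, limma), a call lost with each of the 4 pools left out (up to 0.143). Myh7, the slow myosin heavy chain, was not called, at 9.51 and 9.32 at day 10, against 9.89 and 9.78 at day 0 (-0.43 ± 0.42, adjusted p = 0.41, limma). Thus the slow troponins named here stood above day 0 in both pools, while Myl3 and Myl2 stood below it.

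Calcium handling and excitability genes fell in larger part. Of 23 sarcoplasmic reticulum and calcium genes 14 fell and 3 rose (median -0.44). The 3 that rose were Casq2, Sln and Atp2a2. Casq2, the calsequestrin of slow and cardiac muscle, stood at 11.54 and 11.54 at day 10, against 9.43 and 9.32 at day 0. Sln, sarcolipin, which inhibits the calcium pump, stood at 8.01 and 8.65 at day 10, against 6.83 and 7.04 at day 0. Atp2a2, the slow calcium pump, stood at 12.67 and 12.66 at day 10, against 11.68 and 11.60 at day 0. The day 10 pools of Sln lay further apart than those of the other two. Mrln, myoregulin, another inhibitor of the pump, stood at 9.57 and 9.67 at day 10, against 11.36 and 11.27 at day 0, and Jph1, which ties the reticulum to the T-tubule, differed by -1.12 ± 0.13. Of 14 ion channels and pumps 11 fell and 2 rose. Scn4b, a sodium channel beta subunit, stood at 9.01 and 8.56 at day 10, against 11.62 and 11.66 at day 0. Clcn1, the muscle chloride channel, differed by -1.68 ± 0.16 and Kcnj2, an inward rectifier potassium channel, by -1.55 ± 0.10. Kcnn3, a calcium-activated potassium channel found in immature and denervated muscle, rose by 1.13 ± 0.08.

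**Figure D2:**
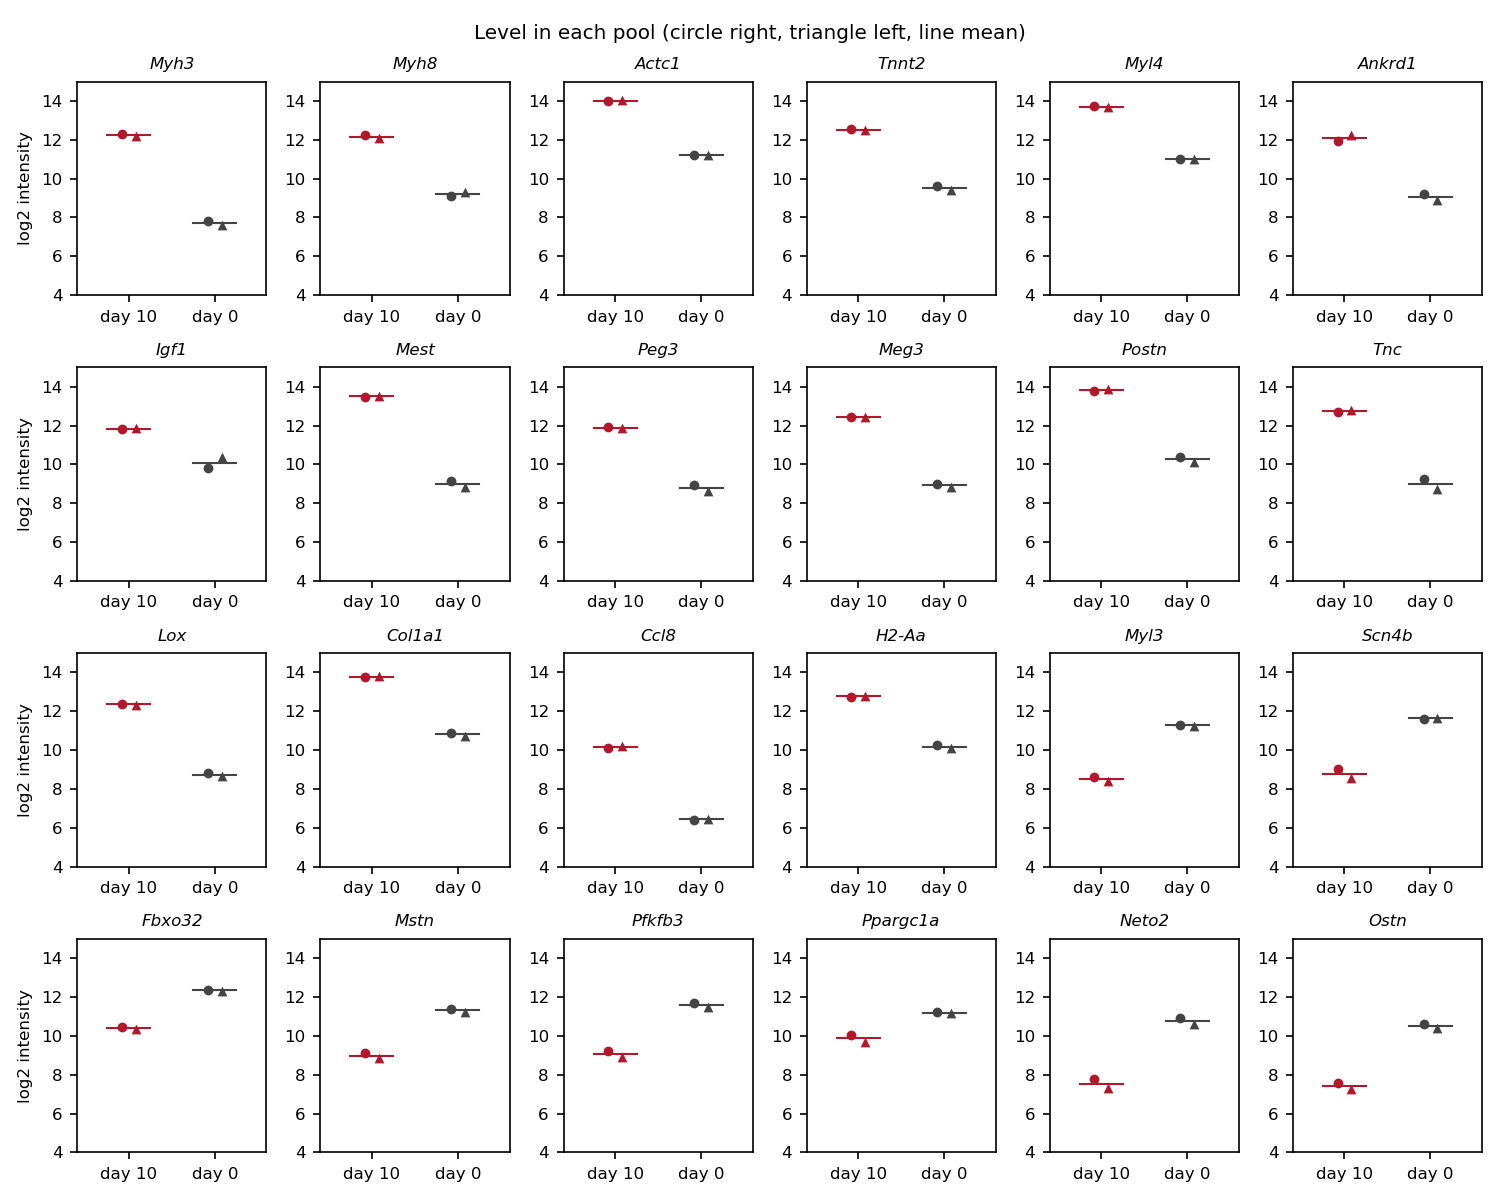
Log2 intensity of 24 genes in the right pool (circle) and left pool (triangle) of day 10, in red, and of day 0, in grey, with a line at the mean of each day. The first 16 genes stood higher at day 10 in both pools, and the last 8, from Myl3 to Ostn, stood lower.

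Genes of the immature neuromuscular junction were among the larger rises of the fibre. Of 19 junction and denervation genes 10 rose, 7 of them over 2-fold, and 3 fell. Chrng, the fetal gamma subunit of the acetylcholine receptor, stood at 10.15 and 10.04 at day 10, against 8.02 and 7.98 at day 0. Chrna1, its alpha subunit, stood at 11.77 and 11.77 at day 10, against 9.91 and 9.82 at day 0. Chrne, the adult epsilon subunit that replaces Chrng, stood at 9.70 and 9.55 at day 10, against 10.39 and 10.33 at day 0 (-0.74 ± 0.11). The fetal subunit was therefore higher and the adult subunit lower at day 10, with no overlap between days. Ncam1, an adhesion protein of denervated and regenerating fibres, rose by 2.43 ± 0.11.

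Of 27 satellite cell, myogenic and fusion genes 15 rose, 4 of them over 2-fold, and 7 fell, 1 over 2-fold (median 0.45). Mymk, myomaker, which drives fusion of myoblasts, stood at 11.91 and 11.93 at day 10, against 8.61 and 8.61 at day 0 (9.92-fold). Myog, myogenin, a factor of differentiating myoblasts, stood at 10.10 and 10.10 at day 10, against 7.67 and 7.60 at day 0. Pax7, the marker of satellite cells, stood at 9.42 and 9.22 at day 10, against 8.76 and 8.80 at day 0 (0.54 ± 0.09, adjusted p = 5.48e-04, limma). Mymk and Myog thus moved by more than 2 log2 units and Pax7 by less than 1, and these picked genes do not stand for the list. Eya1, a developmental transcriptional cofactor, differed by -1.35 ± 0.10.

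Load-related genes rose in 14 and fell in 7 of 31 cases (median 0.14). Ankrd1, a titin-binding stress protein, stood at 11.95 and 12.25 at day 10, against 9.21 and 8.89 at day 0 (3.06 ± 0.13). Csrp3, muscle LIM protein, stood at 12.64 and 12.67 at day 10, against 11.43 and 11.63 at day 0. Xirp1, an actin-binding repair protein, stood at 12.30 and 12.24 at day 10, against 11.56 and 11.40 at day 0. Fhl2, a LIM protein, and Rrad, a small GTPase, differed by 1.53 ± 0.12 and 1.59 ± 0.14. Ky, a Z-disc protein, was lower, at 9.77 and 9.45 at day 10, against 11.02 and 10.88 at day 0. Of 24 genes that link the fibre to the matrix 14 rose and 4 fell (1 to 3 with a pool left out), with Lamb1, a laminin chain, at 2.05 ± 0.09 and Sgca, alpha-sarcoglycan, at -0.73 ± 0.09.

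Imprinted genes of the embryonic growth network rose almost as a whole. Of 16 measured, 15 rose, 13 of them over 2-fold, and 1 fell, with a median of 2.38. Mest, an imprinted hydrolase gene, stood at 13.49 and 13.51 at day 10, against 9.14 and 8.83 at day 0 (22.8-fold, adjusted p = 1.29e-09, limma). Igf2, the fetal growth factor, stood at 13.17 and 13.14 at day 10, against 9.93 and 9.89 at day 0. Meg3, a long noncoding RNA, stood at 12.42 and 12.45 at day 10, against 8.99 and 8.85 at day 0. All 3 were higher in both day 10 pools by more than 3 log2 units. Plagl1, a zinc finger factor of the network, rose by 3.96 ± 0.10, and Peg3, another zinc finger gene, by 3.09 ± 0.12. Nnat, neuronatin, was the member that fell (-0.60 ± 0.18, adjusted p = 0.0181, limma). That call was lost when 1 of the 4 pools was left out in 2 of 4 cases (adjusted p up to 0.158).

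In the insulin-like growth factor list 11 of 17 genes rose and 3 fell. Igf1 stood at 11.81 and 11.86 at day 10, against 9.80 and 10.39 at day 0, so that the day 0 pools differed by more than the day 10 pools did. Igfbp4 and Igfbp3, binding proteins of the growth factors, rose by 1.89 ± 0.16 and 1.73 ± 0.12. Grb10, an imprinted adaptor of the receptor, rose by 2.26 ± 0.07, while Grb14, its relative, differed by -1.47 ± 0.11. Of 23 myostatin and activin genes 10 rose and 7 fell. Mstn, myostatin, which restrains muscle growth, stood at 9.12 and 8.85 at day 10, against 11.39 and 11.25 at day 0 (-2.34 ± 0.19, adjusted p = 1.98e-06, limma). Fst, follistatin, which binds myostatin, stood at 9.91 and 10.05 at day 10, against 9.18 and 9.13 at day 0. Fstl1 stood at 13.25 and 13.30 at day 10, against 10.82 and 10.70 at day 0. Myostatin was thus lower and follistatin higher in both day 10 pools. Wfikkn2, a secreted protein that also binds myostatin, went the other way from follistatin, by -1.02 and -0.56 on its probe sets.

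Of 24 Wnt genes 8 were higher and 7 lower, shares near the 23.6% and 27.5% of all genes. Sfrp2, Sfrp4 and Sfrp1, secreted frizzled related proteins, rose by 3.88 ± 0.16, 2.89 ± 0.12 and 2.84 ± 0.10. Sfrp5, of the same family, differed by -1.12 ± 0.16. Of 21 mTOR and nutrient sensing genes 5 rose, a share near the 23.6% of all genes, and 10 fell, against 27.5% of all genes. Akt1, a kinase upstream of mTOR, stood at 11.65 and 11.60 at day 10, against 10.77 and 10.77 at day 0. Ddit4l, which inhibits mTOR signalling, stood at 11.14 and 11.09 at day 10, against 12.76 and 12.71 at day 0. Sesn3, a sestrin, rose by 1.16 ± 0.08.

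Atrophy genes fell. Of 29 FoxO and atrophy ubiquitin ligase genes 19 fell, 10 of them over 2-fold, and 4 rose (1 to 2 with a pool left out). Fbxo32, the ubiquitin ligase atrogin-1, stood at 10.44 and 10.37 at day 10, against 12.34 and 12.33 at day 0 (-1.93 ± 0.08, adjusted p = 1.43e-08, limma). Trim63, the ligase MuRF1, stood at 10.31 and 10.20 at day 10, against 11.31 and 11.13 at day 0. The pools did not overlap in either gene. Asb4, Asb14 and Asb15, substrate adaptors of ubiquitin ligases, differed by -2.24 ± 0.11, -2.18 ± 0.15 and -2.08 ± 0.17. The 20S and 26S proteasome genes had 3 higher and 7 lower of 30 and a median of -0.09, close to that of all genes; with equal array medians 13 were lower.

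The protein synthesis lists did not move together. Of 32 ribosomal protein genes 18 rose and 1 fell, with a median of 0.25 and none over 2-fold higher. With equal array medians 10 rose, and without the right day 10 pool 11 did. The 1 that fell, Rpl3l, is a ribosomal protein of adult striated muscle and stood at 10.37 and 10.20 at day 10, against 12.13 and 12.22 at day 0. Of 44 ribosome biogenesis genes 5 rose (1 to 7 with 1 of the 4 pools left out) and 16 fell (11 to 17), none over 2-fold. Npm1, nucleophosmin, rose by 0.74 ± 0.10. Of 18 aminoacyl tRNA synthetase genes 0 rose and 10 fell, with Iars, the isoleucine enzyme, at -0.62 ± 0.06. Eef1a1, the elongation factor of most tissues, stood at 13.98 and 13.94 at day 10, against 12.81 and 12.86 at day 0. Myc, a driver of ribosome production, stood at 9.65 and 9.62 at day 10, against 8.20 and 8.14 at day 0 (1.47 ± 0.09). Of 27 amino acid and polyamine genes 11 rose and 10 fell: Slc38a1, a glutamine transporter, rose by 2.29 ± 0.13 on its brighter probe set and by 0.78 on its other one, while Smox, spermine oxidase, stood at 10.39 and 10.10 at day 10, against 12.26 and 12.13 at day 0. Translation initiation and elongation factors rose in 8 and fell in 11 of 28 cases (7 to 10 falls with a pool left out).

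Secretory pathway genes rose. Of 29 endoplasmic reticulum folding and secretion genes 23 rose and 2 fell (median 0.54). Kdelr3, which returns proteins to the reticulum, stood at 11.70 and 11.78 at day 10, against 8.82 and 8.39 at day 0. Serpinh1, the collagen chaperone, rose by 1.65 ± 0.09, and Sec61a1, a subunit of the translocon, by 1.63 ± 0.08. Herpud1, a gene of reticulum stress, differed by -0.73 ± 0.06. Of 23 cytosolic chaperone genes 7 rose (4 to 6 with a pool left out) and 7 fell, shares close to those of all genes. Hspb1, a small heat shock protein of muscle, rose by 0.87 ± 0.12.

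Genes of respiration, the citrate cycle, fatty acid use and glycolysis were mostly lower at day 10. All 35 measured complex I genes fell, with a median of -0.68 and 2 over 2-fold. Of 42 genes of complexes II to V 38 fell and 2 rose (median -0.54). Ndufs1, a core subunit of complex I, stood at 11.20 and 11.11 at day 10, against 12.18 and 12.20 at day 0. Sdhb, the iron-sulphur subunit of complex II, stood at 11.40 and 11.19 at day 10, against 12.55 and 12.53 at day 0. Cox7a1, the muscle form of a complex IV subunit, stood at 12.31 and 12.17 at day 10, against 13.34 and 13.35 at day 0. Cox6a1, the form found outside muscle, rose, at 10.75 and 10.70 at day 10, against 9.83 and 9.97 at day 0 (0.82 ± 0.12). The subunit form of muscle was therefore lower and the general form of another subunit higher.

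Of 24 citrate cycle and pyruvate genes 23 fell, and Pdk3, a pyruvate dehydrogenase kinase, was the 1 that rose, at 9.77 and 9.63 at day 10, against 7.61 and 7.30 at day 0. Pdk4, the kinase of fasted muscle, stood at 12.53 and 12.47 at day 10, against 13.34 and 13.36 at day 0. Of 27 fatty acid genes 25 fell, 16 of them over 2-fold, with a median of -1.05. Acadm, medium-chain acyl-CoA dehydrogenase, stood at 11.56 and 11.47 at day 10, against 13.03 and 12.97 at day 0. Slc27a1, a fatty acid transporter, stood at 10.15 and 9.96 at day 10, against 11.72 and 11.72 at day 0. Cpt1a, the carnitine transferase form of liver, was the 1 that rose (1.02 ± 0.13). Both forms more typical of other tissues, Cpt1a and Cox6a1, were thus higher at day 10.

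Of 29 glycolysis and glycogen genes 22 fell, 11 over 2-fold, and 4 rose. Pfkfb3, which makes the activator of phosphofructokinase, stood at 9.21 and 8.90 at day 10, against 11.67 and 11.51 at day 0 (-2.53 ± 0.12, adjusted p = 3.20e-08, limma). Hk2, hexokinase 2, stood at 10.48 and 10.24 at day 10, against 11.94 and 11.75 at day 0. Fbp2, the muscle fructose bisphosphatase, stood at 7.63 and 7.68 at day 10, against 9.88 and 9.57 at day 0. Slc2a4, the insulin-responsive glucose transporter, stood at 11.41 and 11.31 at day 10, against 12.77 and 12.69 at day 0. In all 4 genes both pools were lower at day 10 by more than 1 log2 unit. Pgam1, the phosphoglycerate mutase of most tissues, rose by 0.96 ± 0.11. Among 22 regulators of oxidative metabolism 16 fell and 1 rose. Ppargc1a, the coactivator PGC-1 alpha, stood at 10.03 and 9.71 at day 10, against 11.24 and 11.16 at day 0. Ppara, a receptor that activates fatty acid genes, stood at 8.08 and 7.92 at day 10, against 9.87 and 10.02 at day 0. Ucp3, the uncoupling protein of muscle, differed by -1.31 ± 0.12. The pentose phosphate and nucleotide supply list split into 12 higher, 2 of them over 2-fold, and 12 lower, 3 over 2-fold, of 27. Ckmt2, the mitochondrial creatine kinase, is a gene of neither pathway and differed by -1.55 ± 0.19.

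Cell cycle genes remained above day 0. Of 33 mitosis genes 30 rose, 23 over 2-fold, and 1 fell, with a median of 1.13. Ccna2, cyclin A2, stood at 9.96 and 10.02 at day 10, against 8.34 and 7.50 at day 0. Mki67, a marker of dividing cells, differed by 1.45 ± 0.38. The day 0 pools of these genes lay far apart, with the right above the left by a median of 0.42 over the list. With 1 pool left out, between 25 and 30 mitosis genes rose, and the call of Mki67 was lost without the left day 0 pool. Bub1, a spindle checkpoint kinase, stood at 8.27 and 8.16 at day 10, against 6.68 and 6.41 at day 0. Of 32 DNA replication genes 19 rose and 1 fell (median 0.57). Mcm6, a helicase subunit, rose by 1.45 ± 0.17. Rfc4, a clamp loader subunit, fell, at 9.46 and 9.44 at day 10, against 10.31 and 10.14 at day 0. Cdkn1c, an imprinted inhibitor of cyclin kinases, stood at 10.89 and 10.96 at day 10, against 9.49 and 9.39 at day 0 (1.48 ± 0.10). The list of kinase inhibitors and p53 targets had 4 higher, 1 of them over 2-fold, and 4 lower of 18. Those shares were near the 23.6% higher and 27.5% lower of all genes.

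Extracellular matrix genes rose in each of their lists. Of 24 collagens 18 rose and 1 fell, 15 of the rises being over 2-fold. Col1a1, the main chain of type I collagen, stood at 13.76 and 13.79 at day 10, against 10.89 and 10.73 at day 0. Col3a1, of type III, stood at 12.76 and 12.79 at day 10, against 10.05 and 9.89 at day 0. Col12a1, a fibril-associated collagen, stood at 12.95 and 12.83 at day 10, against 9.33 and 9.06 at day 0 (3.69 ± 0.10). The pools of a day differed by less than 0.3 in these 3 genes. Of 22 collagen processing and cross-linking genes 18 rose. Lox, lysyl oxidase, which cross-links collagen, stood at 12.37 and 12.35 at day 10, against 8.82 and 8.66 at day 0. Plod2, a lysyl hydroxylase, stood at 10.78 and 10.79 at day 10, against 7.45 and 7.04 at day 0. The single collagen called lower, Col22a1 (-0.22 ± 0.08, adjusted p = 0.0411, limma), lost its call with each of the 4 pools left out.

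Matricellular and matrix glycoprotein genes rose in 29 of 31 cases, 25 over 2-fold, and fell in 0 (median 1.90). Tnc, tenascin C, an adhesion-modulating glycoprotein of growing and injured tissue, stood at 12.70 and 12.78 at day 10, against 9.26 and 8.73 at day 0. Postn, periostin, a matricellular protein, stood at 13.78 and 13.88 at day 10, against 10.38 and 10.12 at day 0. Thbs2, thrombospondin 2, stood at 12.79 and 12.81 at day 10, against 9.67 and 9.47 at day 0. Every day 10 pool of the 3 genes was above every day 0 pool by more than 3 log2 units. Of 32 proteases and inhibitors 23 rose and 2 fell. Mmp13, a collagenase, stood at 11.47 and 11.61 at day 10, against 7.64 and 7.72 at day 0. Timp1, an inhibitor of metalloproteases, stood at 11.67 and 11.69 at day 10, against 8.12 and 7.72 at day 0. Timp4, the inhibitor of heart and muscle, moved the other way, at 8.08 and 8.09 at day 10, against 10.94 and 10.97 at day 0. Small leucine-rich proteoglycans rose in 9 of 13 cases, with Aspn, asporin, at 2.60 ± 0.07 and Bgn, biglycan, at 1.91 ± 0.06.

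Tendon markers rose in 12 of 14 cases and fell in 0 (median 1.25). Tnmd, tenomodulin, a membrane protein of tendon cells, stood at 12.44 and 12.34 at day 10, against 9.37 and 9.32 at day 0. Thbs4, thrombospondin 4, stood at 13.65 and 13.70 at day 10, against 11.79 and 11.62 at day 0. Kera, keratocan, a proteoglycan of tendon and cornea, stood at 10.59 and 10.94 at day 10, against 8.93 and 8.59 at day 0. The tendon and aponeurosis share of the dissected pools was not measured. Acan, aggrecan of cartilage and loaded tendon, stood at 9.54 and 9.04 at day 10, against 7.29 and 7.45 at day 0, while the cartilage and bone list split into 3 higher and 4 lower of 12 (1 to 2 lower with a pool left out). Of 25 fibro-adipogenic progenitor markers 20 rose and 1 fell. Mfap5, a microfibril protein, rose by 2.56 ± 0.08, Lum, lumican, by 2.26 ± 0.12, and Thy1, a surface protein of fibroblasts, by 2.05 ± 0.10.

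**Figure D3:**
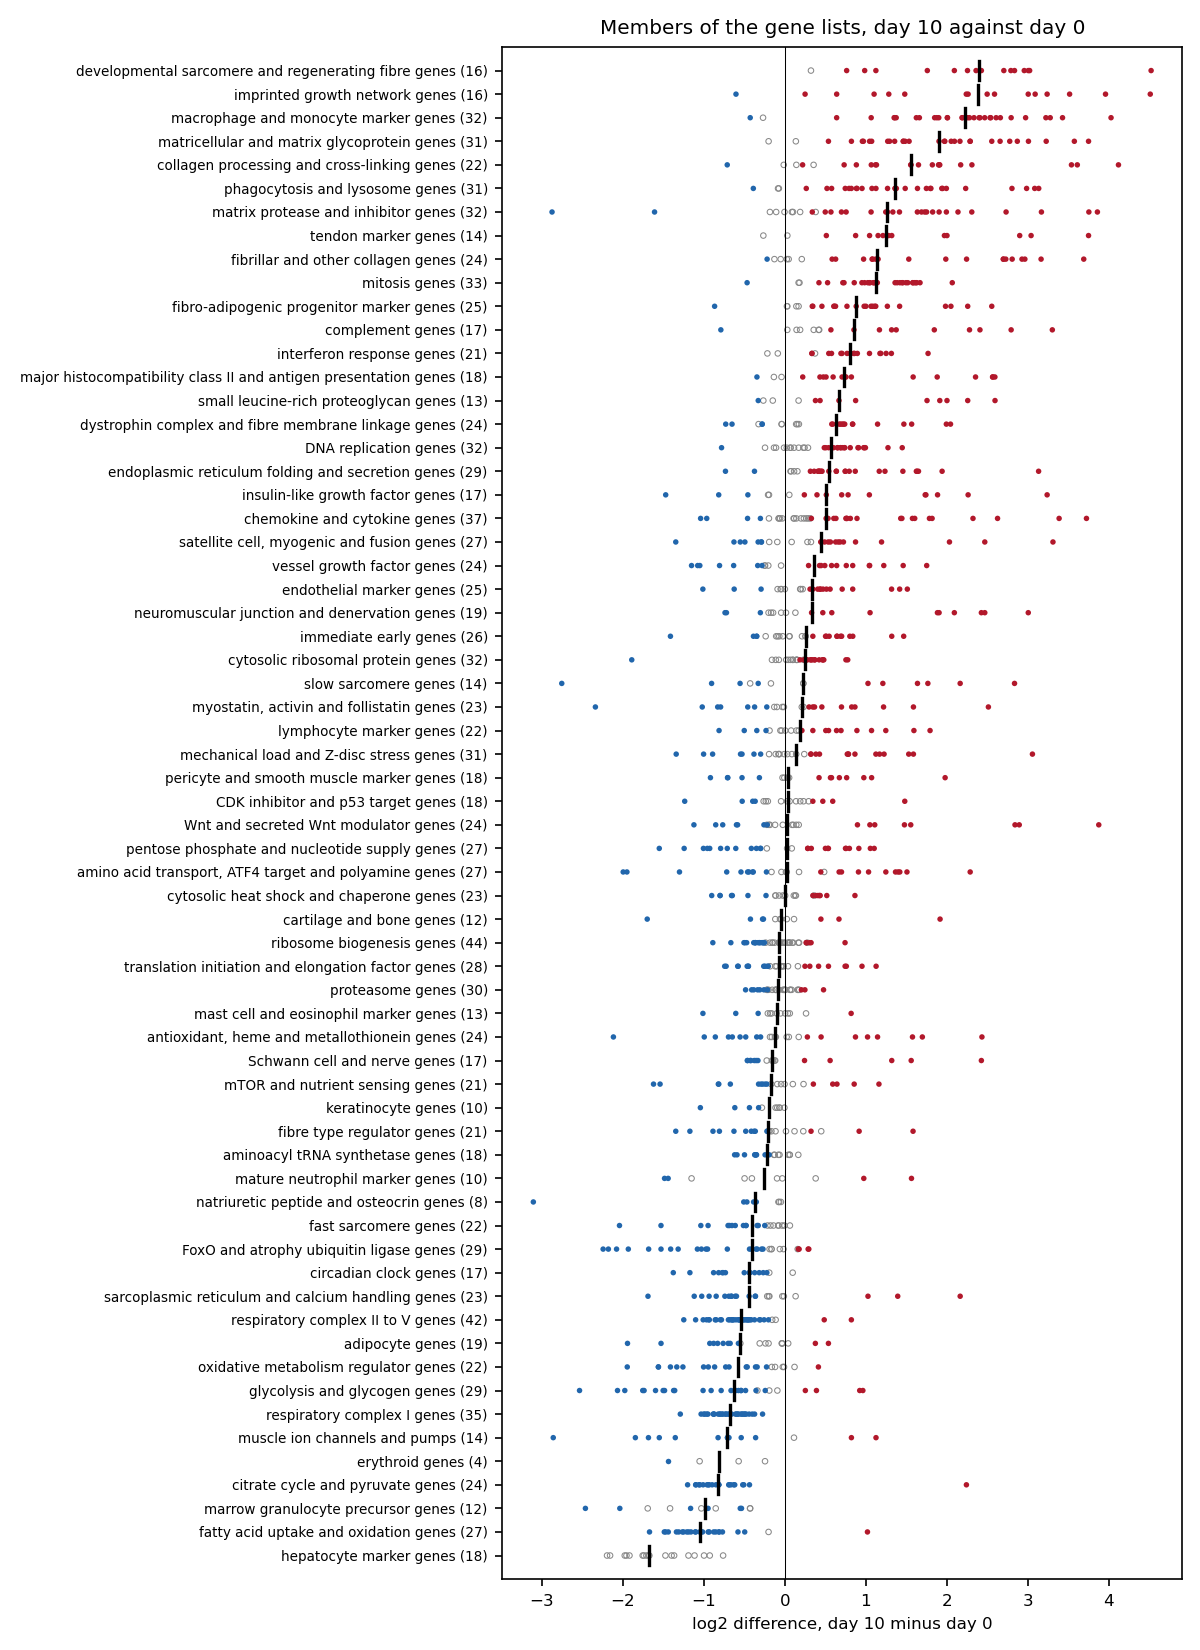
Each row is a gene list with its number of measured members in brackets; each point is a member's log2 difference, day 10 minus day 0, red if called higher, blue if called lower and open if not called, and the black bar is the median. Lists are ordered by median, from developmental sarcomere genes (2.39) at the top to hepatocyte markers (-1.68), of which none was called, at the bottom.

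Nearly all macrophage and monocyte markers were higher. Of 32 measured, 30 rose, 29 of them over 2-fold, and 1 fell, with a median of 2.23. Ms4a7, a membrane protein of macrophages, stood at 10.94 and 11.01 at day 10, against 6.91 and 6.99 at day 0 (16.3-fold, adjusted p = 1.65e-10, limma). Adgre1, a surface receptor of macrophages, stood at 10.95 and 10.96 at day 10, against 8.05 and 7.91 at day 0. Cd68, a lysosomal protein of macrophages, stood at 11.76 and 11.85 at day 10, against 9.24 and 9.04 at day 0. The levels of all 3 were tight within each day. The 1 that fell was Marco, a scavenger receptor of some resident macrophages, which was dim (-0.43 ± 0.11, adjusted p up to 0.06 with 1 pool left out). Of 31 phagocytosis and lysosome genes 28 rose: Gpnmb, a glycoprotein of phagocytes, stood at 11.39 and 11.41 at day 10, against 8.43 and 8.11 at day 0. Ctsk, cathepsin K, a collagen-degrading protease, stood at 11.28 and 11.33 at day 10, against 8.50 and 8.14 at day 0. Complement genes rose in 10 of 17 cases, with C1qb, a chain of C1q, at 2.79 ± 0.10 and C3ar1, a receptor of a C3 fragment, at 3.30 ± 0.09.

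Chemokines and cytokines rose in 20 and fell in 4 of 37 cases (2 to 3 falls with a pool left out). Ccl8, which attracts monocytes and lymphocytes, stood at 10.12 and 10.19 at day 10, against 6.39 and 6.47 at day 0. Ccl3 stood at 10.55 and 10.23 at day 10, against 6.79 and 7.23 at day 0. Ccl2, the monocyte chemokine, stood at 9.20 and 9.01 at day 10, against 7.84 and 7.51 at day 0. Il15, a cytokine made by muscle, differed by -1.04 ± 0.11. Of 21 interferon response genes 18 rose and 0 fell (median 0.81), with Oasl2 at 1.77 ± 0.10 and Irf7, a regulator of interferon genes, at 1.17 ± 0.15. Neutrophil markers did not follow: of 10, 2 rose, 1 of them over 2-fold, 2 fell and 6 were not called. These shares were near the 23.6% higher and 27.5% lower of all genes. Genes given next are from the side that fell, and do not give the direction of the list. S100a8, a calcium-binding protein abundant in neutrophils, stood at 7.54 and 7.47 at day 10, against 9.44 and 8.45 at day 0. S100a9, its partner, stood at 7.74 and 7.72 at day 10, against 9.70 and 8.73 at day 0. The right day 0 pool was the highest for both, and with 1 pool left out the call was kept in 1 of 4 cases for S100a8 and 3 of 4 for S100a9. Marrow granulocyte genes fell in 6 of 12 cases, but the right day 0 pool was above the left by a median of 0.82, and the count was 10 without the left day 0 pool and 2 without any other of the 4 pools.

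Antigen presentation genes of class II rose. Of 18 measured, 15 rose and 1 fell, and the gene that fell was H2-Ea, whose gene is defective in C57BL/6 mice. H2-Aa, H2-Ab1 and H2-Eb1 encode chains of the class II molecules, and Cd74 the invariant chain that guides them. H2-Aa stood at 12.74 and 12.81 at day 10, against 10.26 and 10.10 at day 0 (6.04-fold). H2-Eb1 stood at 12.09 and 12.06 at day 10, against 9.77 and 9.67 at day 0. Cd74 stood at 12.60 and 12.67 at day 10, against 10.09 and 10.05 at day 0. Ciita, the transactivator of class II genes, stood at 8.45 and 8.33 at day 10, against 7.67 and 7.70 at day 0 (0.71 ± 0.07), and was named after its values were seen. H2-Aa and Cd74 rose by 2.59 ± 0.08 and 2.56 ± 0.08, and the pools of each day were close.

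Promoters of class II genes are shown for the Y box, a CCAAT-type element of class II promoters, a motif that the H2-Aa and H2-Eb1 windows share with those of H2-Oa and H2-Ob, whose levels differed little. GATTGG, its core, was searched on both strands in the 200 bases around the annotated start (RefSeq, GRCm38.p6), and capitals mark each match.
H2-Aa, chr17:34287774-34287973, minus strand: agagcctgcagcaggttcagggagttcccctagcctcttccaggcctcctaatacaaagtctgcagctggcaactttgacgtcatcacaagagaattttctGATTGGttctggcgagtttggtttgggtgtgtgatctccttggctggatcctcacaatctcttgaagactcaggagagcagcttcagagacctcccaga
H2-Eb1, chr17:34305717-34305916, plus strand: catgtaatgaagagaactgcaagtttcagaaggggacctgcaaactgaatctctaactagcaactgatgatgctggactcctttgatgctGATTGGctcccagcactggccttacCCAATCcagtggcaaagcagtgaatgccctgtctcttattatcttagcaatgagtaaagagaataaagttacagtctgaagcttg
H2-Oa, chr17:34092229-34092428, plus strand: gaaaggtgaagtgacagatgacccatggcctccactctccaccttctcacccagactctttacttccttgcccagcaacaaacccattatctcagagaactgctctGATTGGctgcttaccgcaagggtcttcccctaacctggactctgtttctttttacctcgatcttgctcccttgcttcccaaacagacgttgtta
H2-Ob, chr17:34238755-34238954, plus strand: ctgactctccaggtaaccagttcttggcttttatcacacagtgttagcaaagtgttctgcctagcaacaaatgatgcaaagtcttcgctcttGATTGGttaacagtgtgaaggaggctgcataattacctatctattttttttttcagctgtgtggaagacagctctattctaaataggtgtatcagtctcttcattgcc
The match begins 49 bases before the start in H2-Aa and 60 before it in H2-Eb1, where a second match on the other strand begins 35 before it. In H2-Oa and H2-Ob it begins 44 and 58 bases before the start. GATTGG was in 12.6% of all 32851 windows, and in 4 of the 11 class II list genes with an entry. The longer CTGATTGG was in 3.43% of all windows and in 3 of those 11 genes. H2-Oa and H2-Ob encode the chains of H2-O, an inhibitor of peptide loading. H2-Oa was not called, at 7.20 and 7.39 at day 10, against 7.35 and 7.32 at day 0, and H2-Ob was at 8.01 and 8.13 at day 10, against 7.79 and 7.90 at day 0 (0.22, adjusted p = 0.0292, limma), so the same letters stood before genes with large and small differences. The 4 promoters were chosen after the values were seen.

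Lymphocyte markers rose in 11 and fell in 4 of 22 cases, with 4 rises when the dimmest 1 in 3 genes were left out and 1 to 3 falls with a pool left out. Ccl5, a chemokine of T cells and macrophages, stood at 10.36 and 10.46 at day 10, against 8.28 and 7.89 at day 0. Cd3g, a chain of the T cell receptor complex, stood at 7.72 and 7.95 at day 10, against 6.92 and 6.61 at day 0. Cd4 stood at 8.63 and 8.52 at day 10, against 7.34 and 7.32 at day 0. Nkg7, a granule protein of cytotoxic cells, stood at 9.18 and 9.12 at day 10, against 7.99 and 7.13 at day 0. Ms4a1, the B cell antigen CD20, was dim and differed by -0.81 ± 0.10. Cd3g, Cd4 and Nkg7 were thus higher and Ms4a1 lower in both day 10 pools. Of the 22 markers 7 were not called and 13 were dim, so these genes do not give the direction of a cell type.

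Markers of other cell types went both ways, and their counts stand beside 23.6% higher and 27.5% lower over all genes. Endothelial markers rose in 15 and fell in 3 of 25 cases: Plvap, of fenestrated vessels, rose by 1.32 ± 0.07, while Flt1, a receptor of VEGF, differed by -1.01 ± 0.09. Among 24 vessel growth factors 13 rose and 7 fell, with Vegfa, the main vessel growth factor, at -1.15 ± 0.12 and Pdgfc, a platelet-derived growth factor, at 1.75 ± 0.14. Adipocyte genes fell in 9 and rose in 2 of 19 cases, with Plin4, a lipid droplet protein, at -1.94 ± 0.09. Pericyte and smooth muscle markers rose in 8 and fell in 5 of 18. Of 17 Schwann cell and nerve genes 5 rose and 7 fell, and the largest rise was in Ncam1, which muscle also expresses. Keratinocyte markers, a sign of skin, fell in 4 of 10 cases, and Krt14, a basal keratin, differed by -0.32 ± 0.10, a call kept in 2 of 4 cases with a pool left out. Mast cell and eosinophil markers rose in 1 and fell in 3 of 13 cases, and of 4 erythroid genes 0 rose and 1 fell. Falls among vessel growth factors, pericyte and mast cell markers, and rises among Schwann cell genes, were near the shares of all genes.

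Hepatocyte markers had the lowest median of all lists (-1.68), yet 0 of 18 rose and 0 fell by the test. Ttr, transthyretin of liver, stood at 8.82 and 10.06 at day 10, against 10.53 and 12.74 at day 0 (-2.19 ± 0.98, adjusted p = 0.0833, limma). The left pools were above the right by a median of 1.27 at day 10 and 2.26 at day 0. Fabp1, the liver fatty acid binding protein, is outside the list and was called, and it stood at 6.07 and 7.28 at day 10, against 8.19 and 10.56 at day 0 (-2.70 ± 0.97, adjusted p = 0.0375, limma). Mup3, of a family of near-identical urinary proteins whose probe sets may share signal, stood at 7.38 and 9.13 at day 10, against 9.95 and 12.18 at day 0. Fabp1 and Mup3 kept their call in 2 and 2 of 4 cases with a pool left out. Without the right day 0 pool 11 hepatocyte markers were called lower. The part of this left and right difference in the calls of such genes was not tested. Inmt, a methyltransferase of lung and liver, stood at 7.59 and 8.03 at day 10, against 10.25 and 11.05 at day 0. Ces1d, a carboxylesterase of liver and fat, stood at 7.30 and 7.83 at day 10, against 9.58 and 10.54 at day 0. In both, the left pool was the higher one on each day.

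Clock and signalling genes also changed. Of 17 circadian clock genes 15 fell and 0 rose (median -0.44). Dbp, an output factor of the clock, stood at 10.62 and 10.59 at day 10, against 11.08 and 11.01 at day 0. Nr1d1, a repressor of the clock loop, stood at 12.00 and 11.92 at day 10, against 12.80 and 12.75 at day 0. Hlf, a relative of Dbp, fell furthest (-1.38 ± 0.08). The labels give no time of day for tissue collection, so time of day and overload cannot be told apart. Immediate early genes rose in 12 and fell in 4 of 26 cases, with Egr2 at 1.32 ± 0.09 and Nr4a1, an orphan receptor, at -1.41 ± 0.10. Fibre type regulators fell in 10 and rose in 3 of 21: Sox6, a repressor of slow genes, stood at 10.13 and 9.99 at day 10, against 11.27 and 11.19 at day 0. Vgll3, a cofactor of TEAD factors, stood at 9.94 and 9.92 at day 10, against 8.30 and 8.39 at day 0. Of 24 antioxidant, heme and metallothionein genes 8 rose and 9 fell. Mt2, a metallothionein, rose by 1.58 ± 0.09, Hmox1, heme oxygenase 1, by 1.70 ± 0.09, and Nqo1, a quinone reductase, differed by -2.12 ± 0.12.

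Day 10 was then set against day 7. 3284 genes (16.5%) were called, 1385 higher at day 10 (6.95%) and 1899 lower (9.52%), and 53 (0.266%) were over 2-fold higher and 122 (0.612%) over 2-fold lower. The pools of the days did not overlap in 60.4% of all genes, called or not. Leaving out the right day 10, left day 10, right day 7 or left day 7 pool gave 1290, 1478, 965 and 2762 calls, so counts in the following sentences are followed by their range over the 4 pools left out in turn. Proliferation genes were lower: 33 of 33 mitosis genes fell (26 to 30), with a median of -1.32, and so did 30 of 32 replication genes (14 to 29). Top2a, topoisomerase II alpha of dividing cells, stood at 8.96 and 8.98 at day 10, against 10.55 and 10.37 at day 7 (-1.49 ± 0.28, adjusted p = 0.00503, limma). Its second probe set gave a smaller value: against day 0 the difference was 0.32 there (not called), against 1.62 ± 0.28 on the set used. Bub1 stood at 8.27 and 8.16 at day 10, against 10.14 and 9.77 at day 7 (-1.74 ± 0.22, adjusted p = 0.00101, limma). Aurka, a mitotic kinase, stood at 8.31 and 8.30 at day 10, against 9.42 and 9.11 at day 7. Aurka was also the 1 mitosis gene called below day 0 at day 10 (-0.46 ± 0.16, a call kept in 0 of 4 cases with a pool left out). Against day 7, Top2a kept its call in 3 of 4 cases with a pool left out (adjusted p = 0.0547 without the right day 7 pool), Bub1 in 4 and Aurka in 4.

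Of 37 chemokine and cytokine genes 5 rose (2 to 4) and 8 fell (6 to 8) against day 7. Ccl2 stood at 9.20 and 9.01 at day 10, against 10.68 and 10.75 at day 7. Ptgs2, cyclooxygenase 2, which makes prostaglandins, stood at 8.95 and 8.80 at day 10, against 10.69 and 10.63 at day 7. Hmox1 stood at 10.13 and 10.20 at day 10, against 11.74 and 11.91 at day 7. Each was lower in both day 10 pools. Of 32 macrophage markers 17 fell (9 to 13) and 1 rose. Arg1, arginase 1, differed by -2.16 ± 0.43 (adjusted p = 0.00684, limma) between day 10 and day 7, a call kept in 3 of 4 cases. Against day 0 Arg1 was not called, and its day 0 pools stood apart, at 7.37 and 9.16. Of 29 secretory genes 17 fell (4 to 12), and of 44 ribosome biogenesis genes 29 fell (10 to 23).

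Genes of mature muscle and of energy metabolism were higher than at day 7. Of 35 complex I genes 31 rose (11 to 29), and of 22 fast sarcomere genes 18 did (5 to 14). Cox7a1 stood at 12.31 and 12.17 at day 10, against 10.79 and 11.03 at day 7. Slc2a4 stood at 11.41 and 11.31 at day 10, against 9.81 and 10.14 at day 7. Rpl3l stood at 10.37 and 10.20 at day 10, against 8.58 and 8.92 at day 7. Against day 7, Scn4b differed by 1.15 ± 0.19 (adjusted p = 0.00326, limma). These 4 genes lay between the day 7 and the day 0 levels in both day 10 pools. Fatty acid genes rose in 6 of 27 cases (1 to 5), against a background of 6.95%. Tendon genes rose in 9 of 14 (5 to 7), with Kera at 1.28 ± 0.18. Chad, chondroadherin of cartilage and tendon, stood at 10.43 and 10.66 at day 10, against 8.68 and 9.40 at day 7. Kera was above day 0 at day 10, whereas Chad was not called against day 0 (-0.26 ± 0.25, adjusted p = 0.396, limma).

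Against day 14, 931 genes (4.67%) were called, 511 higher at day 10 (2.56%) and 420 lower (2.11%), with 10 (0.0502%) over 2-fold higher and 4 (0.0201%) over 2-fold lower. The pools did not overlap in 51.5% of all genes, called or not. These calls rest on all 4 pools: leaving out the right day 10, left day 10, right day 14 or left day 14 pool gave 128, 67, 200 and 79 calls. Of 32 macrophage markers, 22 were higher at day 10 (8 to 9 with a pool left out). Ccl3 stood at 10.55 and 10.23 at day 10, against 8.58 and 8.43 at day 14 (1.89 ± 0.15, adjusted p = 9.24e-04, limma). Ms4a7 stood at 10.94 and 11.01 at day 10, against 9.98 and 9.98 at day 14. Both kept their call with each of the 4 pools left out. Myog differed by 1.05 ± 0.17 from day 14, a call kept in 0 of 4 cases. Mymk stood at 11.91 and 11.93 at day 10, against 11.01 and 10.96 at day 14, a call kept in 2 of 4. Collagen processing genes were higher in 9 of 22 cases (1 in each case with a pool left out), with P4ha3 at 0.93 ± 0.09, which kept its call in 4 of 4.

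Some metabolic genes were lower at day 10 than at day 14. Fatty acid genes were lower in 11 of 27 (0 to 2) and citrate cycle genes in 10 of 24 (0 to 1). Complex I genes were lower in 1 of 35, and genes of complexes II to V in 3 of 42, with 2 higher. Of 14 slow sarcomere genes 2 were lower, and none was with a pool left out. Myh7 stood at 9.51 and 9.32 at day 10, against 11.14 and 11.37 at day 14 (-1.85 ± 0.42, adjusted p = 0.0352, limma). Myl3 stood at 8.62 and 8.42 at day 10, against 10.00 and 10.07 at day 14. Klhl38, a muscle adaptor of ubiquitin ligases, stood at 9.39 and 9.26 at day 10, against 10.20 and 10.36 at day 14. C7, a complement component, stood at 8.64 and 8.75 at day 10, against 9.89 and 10.13 at day 14. Klhl38 and C7 kept their call with each pool left out, and Myh7 and Myl3 kept it in 0 and 0 of 4 cases (adjusted p up to 0.211 and 0.194).

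**Figure D4:**
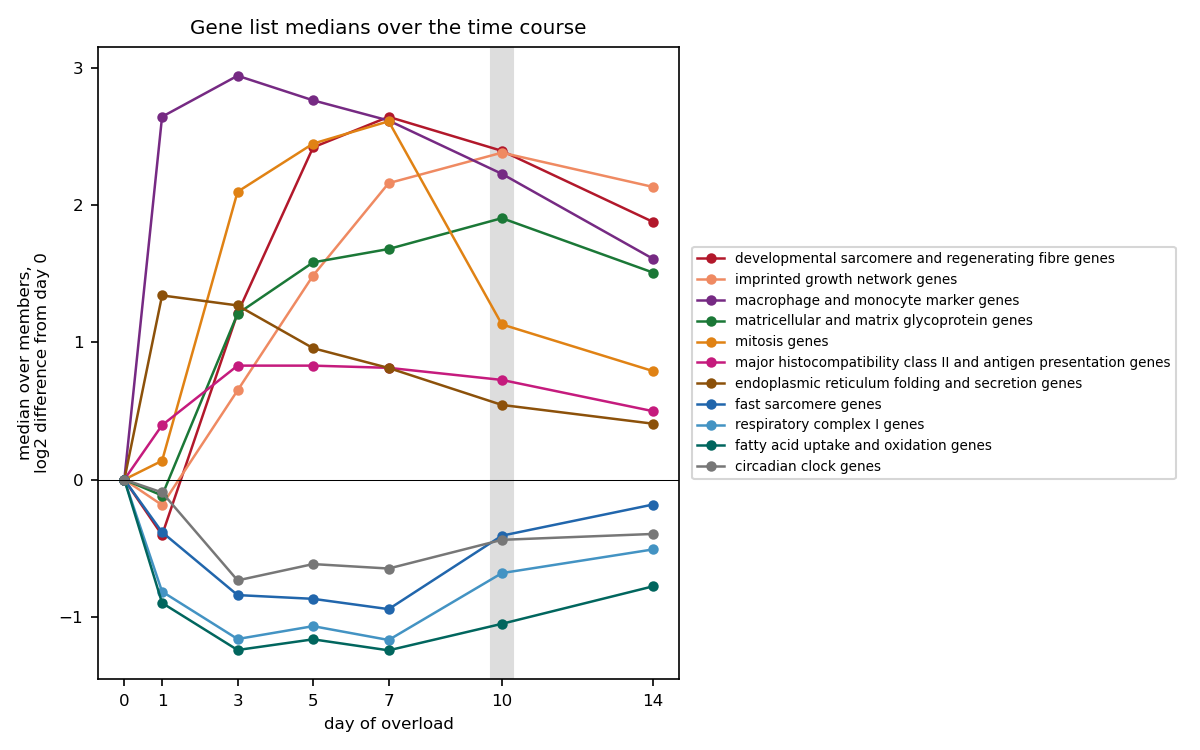
Median over the members of 11 gene lists of the log2 difference from day 0, by day of overload, with day 10 shaded. Mitosis genes stood at 2.61 at day 7, 1.13 at day 10 and 0.79 at day 14, and complex I genes at -1.17, -0.68 and -0.51.

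H2-Aa, Cd74, Ccl5 and Cd3g were higher at day 10 than at both neighbouring days, unlike most members of their lists. Of 18 class II list genes 4 rose (1 to 2 with a pool left out) and 1 fell against day 7, and 6 rose (0 to 1) against day 14. Of 22 lymphocyte markers 6 rose (1 to 4) and 1 fell against day 7, and 5 rose (0 to 1) against day 14. The comparisons with day 7 and day 14 share the same 2 day 10 pools and are not independent. H2-Aa stood at 12.36 and 12.41 at day 7, 12.74 and 12.81 at day 10, and 12.38 and 12.38 at day 14. It differed by 0.39 ± 0.08 from day 7 and by 0.39 ± 0.08 from day 14. Cd74 stood at 12.14 and 12.12 at day 7, 12.60 and 12.67 at day 10, and 12.07 and 12.07 at day 14, with adjusted p of 0.00224 against day 7 and 0.00555 against day 14 (limma). Ccl5 stood at 9.67 and 9.55 at day 7, 10.36 and 10.46 at day 10, and 9.37 and 9.44 at day 14. Cd3g stood at 7.27 and 7.21 at day 7, 7.72 and 7.95 at day 10, and 7.22 and 7.31 at day 14. In all 4 genes both day 10 pools lay above the pools of the other 6 days. Since the naming rule also picks genes called above both neighbouring days, this pattern in named genes carries no weight of its own. Ctss, cathepsin S, which trims the invariant chain, did not share this pattern, at 11.57 and 11.48 at day 7, 10.98 and 10.94 at day 10, and 10.19 and 10.26 at day 14. With 1 pool left out, Ccl5 kept both calls in every case, with adjusted p up to 0.0191 against day 7 and 0.0454 against day 14. H2-Aa kept its call against day 7 in 2 of 4 cases and against day 14 in 0 (0.107 to 0.198). Cd3g kept it in 3 of 4 cases against day 7 and 0 against day 14. Cd74 kept it against day 14 in 2 of 4 (0.0376 to 0.0645).

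**Figure D5:**
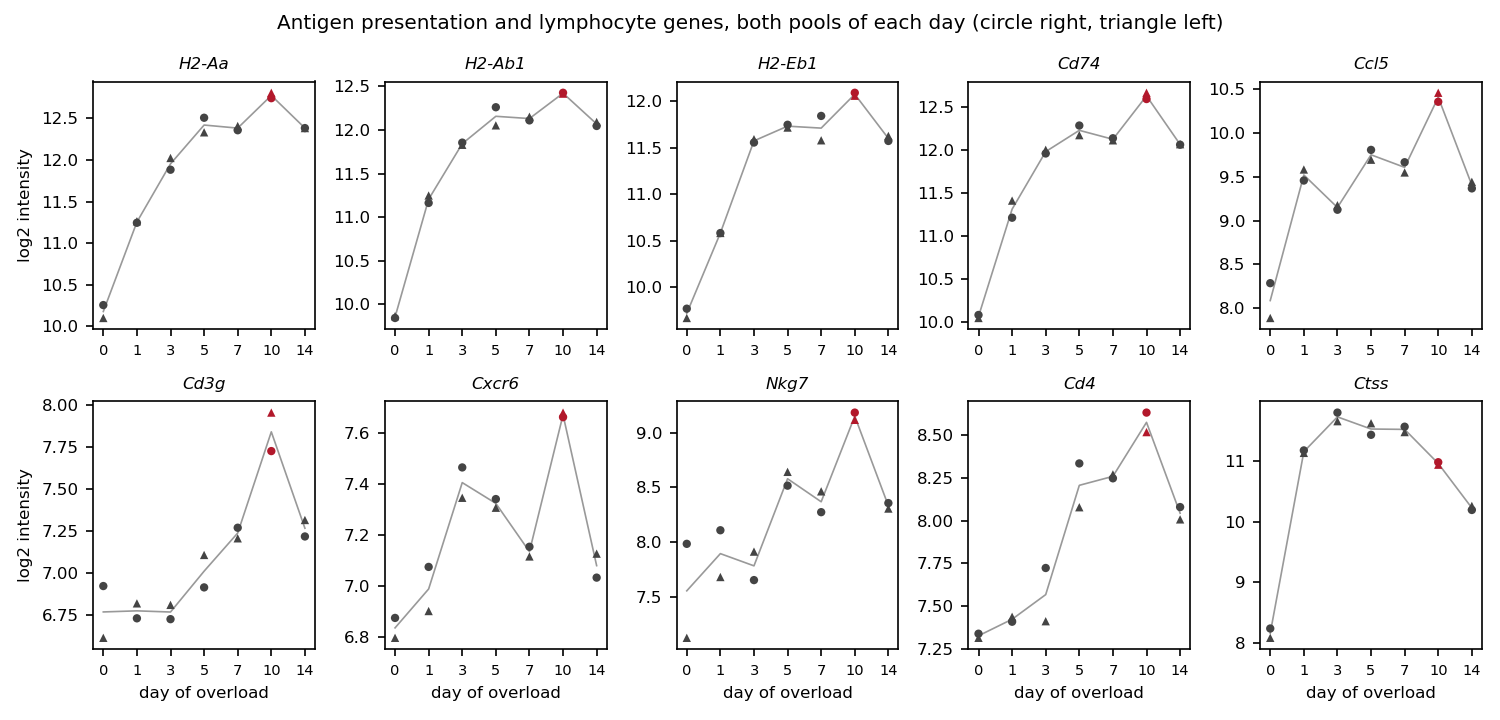
Log2 intensity of 10 genes in the right pool (circle) and left pool (triangle) of each day, with day 10 in red and a line through the day means; each panel has its own vertical range. Both day 10 pools of the first 9 genes lie above the pools of day 7 and day 14, while Ctss lies between those days. The 10 genes were picked for display and do not stand for their lists. Over all genes, pools did not overlap in 60.4% against day 7 and in 51.5% against day 14, in either direction.

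Igf2 and Plagl1 of the imprinted network, Cpxm1 and Myl6b were also higher at day 10 than at both neighbouring days. Igf2 stood at 12.67 and 12.74 at day 7, 13.17 and 13.14 at day 10, and 12.66 and 12.45 at day 14, with adjusted p of 0.00621 against day 7 and 0.00608 against day 14 (limma). Plagl1 stood at 11.53 and 11.58 at day 7, 11.92 and 12.05 at day 10, and 11.46 and 11.19 at day 14. Cpxm1, a carboxypeptidase-like secreted protein, stood at 10.18 and 10.22 at day 7, 10.64 and 10.83 at day 10, and 10.13 and 10.24 at day 14. Myl6b, a light chain of slow and embryonic muscle, stood at 10.25 and 10.21 at day 7, 10.84 and 10.69 at day 10, and 10.07 and 10.06 at day 14. Day 10 was the highest of the 3 days in each. The naming rule picks genes called above or below both days, so such a pattern in a named gene can follow from the selection alone. Below both neighbours stood Ccn2, connective tissue growth factor, at 12.79 and 12.68 at day 7, 12.01 and 11.94 at day 10, and 12.50 and 12.49 at day 14, though it remained above day 0 (0.82 ± 0.07). Tnfrsf12a, the receptor of TWEAK, stood at 11.18 and 11.28 at day 7, 10.82 and 10.71 at day 10, and 11.10 and 11.29 at day 14. Against day 7, with a pool left out, Igf2 kept its call in 2 of 4 cases, Plagl1 in 2, Cpxm1 in 2, Myl6b in 1, Ccn2 in 4 and Tnfrsf12a in 3. Against day 14 Igf2 kept its call in 1 of 4 cases with a pool left out, Plagl1 in 2, Cpxm1 in 0, Myl6b in 0, Ccn2 in 2 and Tnfrsf12a in 0.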

How the data were processed

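The authors deposited 1 intensity per probe set and array, on a linear scale. Partek is named in the submitters' processing notes, and the normalization method is not given in the sources used here. The labels' 2 texts differ in the amount of RNA hybridised, so none is given. Of 35556 probe sets, 21789 carried 1 symbol in the platform annotation, 1621 carried several and 12146 were not listed. The brightest probe set stood for a gene with several (999 genes), which left 19938 genes. Array medians ran from 242.8 to 254.9 on the linear scale. With 2 arrays a day, their number limits the precision.

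Log2 intensities of all 14 arrays were fitted with 1 mean per day in limma 3.58.1 (R 4.3.3, lmFit and eBayes), with Benjamini-Hochberg adjustment over all genes and a threshold of 0.05. Right and left pools of a day were the 2 replicates. The side was not taken as a pairing, because deviations of same-side arrays correlated between -0.58 and 0.44 over the 21 pairs of days; days 10 and 0 had the highest value (0.44), and the labels do not settle it. Tested on simulated data with the real means and spread, the fit of day 10 against day 0 recovered 66% of 1.5-fold, 98% of 2-fold and 100% of 4-fold and 8-fold changes, with 7 false calls. The simulation changed 50 genes at each fold and drew noise for each gene on its own. In the data 51.1% of genes were called and pools can share deviations, so these rates check the fit and are not error rates of this comparison. Named genes were the largest changes of each comparison, among called genes whose pools did not overlap. The largest among genes called above or below both day 7 and day 14 were added. In each of 64 gene lists, the largest called rises and falls and preset members were named. All this followed a written rule, and other names are marked. Of 412 named genes, 28 were dim and 22 had several probe sets, none of them opposite in direction, though sizes can differ. The genes, lists and rule were chosen with earlier results of these data known. Another normalization, filters on dim genes, other probe set rules, other variance priors, the side as a block, fewer arrays, a fold threshold and each pool left out were tried as alternatives.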

Additional observations from a re-analysis of the deposited data

Results flagged for a closer look

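Of the named genes, 3 stood on opposite sides of day 0 at day 10 and at day 7, both differences being called, and the difference between the days was tested in the same limma fit. Aurka, a mitotic kinase, differed from day 0 by -0.46 at day 10 and by 0.49 at day 7, a difference of -0.96 between the days (adjusted p = 0.00282, limma). Its day 10 call against day 0 was lost with any pool of day 10 or day 0 left out. Hmgn5, a nucleosome-binding protein, differed from day 0 by -0.55 at day 10 and by 0.37 at day 7, a difference of -0.93 (adjusted p = 0.00228, limma). Map1lc3a, which marks autophagosomes, differed from day 0 by 0.3 at day 10 and by -0.68 at day 7, a difference of 0.97 (adjusted p = 6.54e-04, limma). In each gene both pools of a day were on the same side of both day 0 pools, which at day 10 holds for every called gene. No group held 4 samples or more, so no pool could be screened for standing apart within its group.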

How the results depend on the processing

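No named gene called in a main comparison or under an alternative changed direction between them. Of the alternative values of named genes, 26204 kept their side of the threshold, 1728 lost the call and 412 gained one. Against day 0, counts of lists stayed within 1.5 times in 2186 alternative values and moved further in 118. Many alternatives left out a pool of a day outside the comparison. Those could change only the estimate of the spread, not the difference between the days compared. List counts of 0 that stayed 0 were also scored as unmoved. These totals therefore overstate how stable the results are. Of list counts above 0, 80 of 95 against day 7 and 70 of 71 against day 14 moved further without 1 of the 4 pools compared, as did 24 of 114 against day 0. Against day 0, 10192 calls became 1842 with a 2-fold threshold and 2209 tested against 1.5-fold. The 4701 higher genes became 1334 and 1549 under these, and 7135 when each probe set was counted. The 5491 lower genes became 508 and 660. Against day 7, 3284 calls became 175 with the 2-fold threshold and 3 tested against 1.5-fold, with 53 and 0 higher and 122 and 3 lower. Against day 14, 931 calls became 14 and 1 under these, with 10 and 1 higher and 4 and 0 lower. Without the dimmest 1 in 3 genes the day 14 calls were 1544 (804 higher and 740 lower). With a trended variance prior they were 1431, of which 687 were lower, and counting each probe set gave 268 lower.

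Leaving out each of the 14 pools in turn gave 7606 to 10531 calls against day 0 (3901 to 4739 higher and 3705 to 5792 lower). Against day 7 it gave 965 to 3393 calls (484 to 1423 higher and 481 to 1970 lower), and against day 14 67 to 1168 (54 to 626 higher and 13 to 542 lower). Where a pool was left out, the lone pool of that day was assumed to vary like the other days. Of the 391 named genes called against day 0, 365 to 375 kept the call without 1 of the 4 pools of days 10 and 0. With the replicate block (side), the counts were 9888, 2978 and 731 against days 0, 7 and 14, and 384 of the 391 named calls remained. Right against left over all days called 0 genes in limma, with 586 at an unadjusted p under 0.05. With 2 pools a day, differences under 2-fold are detected less surely than larger ones, and dim genes lie closest to background.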
